A study of Mus musculus with 2 samples.

Results

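The mouse Fc receptor genes *Fcgr1*, *Fcgr2b*, *Fcgr3*, *Fcgr4*, *Fcer1g*, *Fcgrt* and *Fcrls* were followed in single CD45+ cells of the aortic adventitia. The members were taken by symbol, and all 7 symbols were found once each among the 55386 features counted in both libraries. RankCreRosa26eYFP mice aged 16 weeks were used for both libraries. Their Cre, driven by the *Rank* gene (*Tnfrsf11a*), switches on a yellow fluorescent reporter, whose transcript is called *Yfp* here and which the descendants of a labelled cell keep. One library held cells of 3 untreated animals pooled (steady state). The other held cells of 2 animals pooled after 10 days of angiotensin II from a subcutaneous pump at 1.8 µg/kg/min (AngII). With 1 library per condition there was no replicate and no test, and pooled animals cannot be told apart. Each value below is a count of unique molecular identifiers (UMIs), in which a captured transcript is counted once near its 3′ end, so that gene length does not enter. Levels are UMIs of a gene scaled to the summed UMIs of the same cells (CPM, per 1000000 UMIs), followed in parentheses by an interval at 95% that covers counting error only.

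Fc receptors bind the constant part of antibodies and tie antibody to the cells that carry them. In the mouse, the receptors encoded by *Fcgr1*, *Fcgr3* and *Fcgr4* bind IgG and activate the cell through a shared signalling chain, the product of *Fcer1g*, while the product of *Fcgr2b* carries an inhibitory motif and dampens the same signal. *Fcgrt* encodes the heavy chain of the neonatal Fc receptor, which works inside the cell with the product of *B2m* and returns IgG and albumin from endosomes to the outside. *Fcrls* encodes an Fc receptor-like scavenger receptor that is best known as a marker of microglia and some other resident macrophages.

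On GRCm38 with the GENCODE M21 annotation, 4 of the genes lie together on chromosome 1, with *Fcgr2b* at chr1:170958617-170976547, *Fcgr4* at chr1:171018920-171029761, *Fcgr3* at chr1:171051174-171064935 and *Fcer1g* at chr1:171229572-171234365. *Fcrls* at chr3:87250758-87263738 and *Fcgr1* at chr3:96282909-96293969 lie on chromosome 3, and *Fcgrt* lies at chr7:45092990-45103851 on chromosome 7. *Fcgr4* is on the plus strand and the other 6 are on the minus strand. *Fcgr2b* and *Fcgr3* are near-identical over the exons that bind IgG, so a read from those exons could not be assigned with certainty. In the annotation *Fcgr2b* and *Fcgrt* each overlap a gene on the opposite strand (Gm38204 and Gm45669), and *Fcgr3* and *Fcgr4* each hold a small gene on their own strand (Mir6546 and Gm26110). The promoters of the 3 members that stood at least 2 times apart between the libraries in macrophages are shown as the 250 bases before the RefSeq start site (GRCm38.p6), 5′ to 3′ on the strand of the gene. *Fcgr1* is at chr3:96293970-96294219 on the minus strand, *Fcgr4* at chr1:171018676-171018925 on the plus strand and *Fcrls* at chr3:87263525-87263774 on the minus strand. Capitals mark matches on either strand to GAAA, any 2 bases and GAAA again (the core of the interferon-stimulated response element) and AGGAAGT (a core bound by PU.1 and other ETS factors).
Fcgr1: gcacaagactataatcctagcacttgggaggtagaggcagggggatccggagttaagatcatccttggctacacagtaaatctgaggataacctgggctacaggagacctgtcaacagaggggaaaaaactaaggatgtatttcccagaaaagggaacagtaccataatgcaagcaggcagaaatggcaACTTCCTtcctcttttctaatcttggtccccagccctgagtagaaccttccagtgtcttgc
Fcgr4: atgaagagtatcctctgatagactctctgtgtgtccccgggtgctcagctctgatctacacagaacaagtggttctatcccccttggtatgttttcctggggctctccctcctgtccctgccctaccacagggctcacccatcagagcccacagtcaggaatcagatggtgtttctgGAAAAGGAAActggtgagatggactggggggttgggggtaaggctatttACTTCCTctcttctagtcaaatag
Fcrls: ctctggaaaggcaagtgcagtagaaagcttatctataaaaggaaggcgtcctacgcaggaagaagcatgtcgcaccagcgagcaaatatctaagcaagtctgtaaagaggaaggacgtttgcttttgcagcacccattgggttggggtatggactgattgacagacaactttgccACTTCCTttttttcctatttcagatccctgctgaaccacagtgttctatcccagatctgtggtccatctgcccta
The *Fcgr1* promoter held ACTTCCT, the reverse complement of the ETS core, from 61 bases before the start. The *Fcgr4* promoter held GAAAAGGAAA from 73 bases and ACTTCCT from 24 bases before the start, and the *Fcrls* promoter held ACTTCCT from 75 bases before it. The promoters of *Fcgr2b*, *Fcgr3*, *Fcer1g* and *Fcgrt* held neither motif in this window. Of all 32851 RefSeq promoters of the same length, 2.98% held the interferon core and 7.69% the ETS core. The matches did not overlap each other. They describe letters and do not show that a factor binds there.

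The thresholds stated in the methods, applied to the deposited barcodes, left 306 of 346 barcodes at steady state and 4198 of 4419 on AngII, and the libraries shared 0 barcodes. The study clustered as many cells as there are deposited barcodes, so the thresholds as applied here left out some that it kept. The AngII cells were read far less deeply, with a median of 1092 UMIs per cell against 9105 at steady state. Each barcode joined the class of which it held the most of 8 markers, at least 2, and macrophages were split in the same way by panels of 6 markers. Panels led by *Lyve1*, *Folr2* and *Cbr2*, by *Arg1*, *Spp1* and *Inhba*, by *Ear2* and *Lyz1*, and by *Ifit1*, *Rsad2* and *Isg15* gave *Lyve1*-type, *Arg1*-type, *Ear2*-type and interferon-type macrophages, and the rest are called other macrophages. In each class with a panel, no other class had more markers among the 10 leading genes, with a tie of 1 and 1 in the plasma cell at steady state. The barcodes were placed by these same markers, so this was largely set in advance and does not test the classes. The 13 type-2 dendritic cells at steady state were led by *Cd209a* beside cell-cycle genes such as *Top2a*. Leiden clusters, drawn from expression without the Fc receptor genes, were each named by their most frequent gated class. At steady state none was named for *Ear2*-type macrophages, classical monocytes or type-2 dendritic cells, so these small classes rest on the gates alone. Macrophage markers were also found in T and B cells, where free RNA, doublets and wrongly placed barcodes cannot be told apart. The 8 macrophage markers, summed, stood in T cells at 76.8 CPM at steady state and 796 CPM on AngII, and in macrophages at 28264 and 25419.8 CPM.

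The genes differed in the classes that held them. *Fcgr2b* and *Fcgr3* were high in macrophages and classical monocytes, *Fcgr4* had its highest level in nonclassical monocytes, *Fcer1g* was high in most myeloid classes, mast cells and NK cells, and *Fcgrt* and *Fcrls* were largely held by macrophages. *Fcgr1* stayed at or below 99.9 CPM in the steady state classes of at least 10 cells and was found across macrophages and classical monocytes on AngII.

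*Fcgr1*, the high-affinity IgG receptor CD64, stood at 99.9 CPM (84.3 to 118) in the 121 *Lyve1*-type macrophages at steady state and at 56.7 CPM (29.3 to 99.1) in the 12 classical monocytes, and these neighbours in the order did not differ beyond counting error. The 14 *Ear2*-type macrophages held 3 UMIs, or 8.51 CPM. No UMI was found in nonclassical monocytes, T cells or dendritic cells of types 1 and 2, which allows up to 22.9 CPM in nonclassical monocytes and 9.73 CPM in type-2 dendritic cells at a floor of 3 counts. On AngII, interferon-type macrophages came first with 497 CPM (458 to 539), followed by classical monocytes with 343 CPM (314 to 375), *Arg1*-type macrophages with 284 CPM (264 to 305) and *Lyve1*-type macrophages with 239 CPM (223 to 256), and each differed from the next beyond counting error. The other classes of at least 10 cells with more than 45.9 CPM were mast, nonclassical and neutrophil classes and the remaining macrophages, at 92.2 to 204 CPM. The mast cell value rests on 6 UMIs in 21 cells. T cells held 11.5 CPM (6.42 to 18.9) and type-1 dendritic cells 5.78 CPM (2.77 to 10.6).

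*Fcgr3*, the low-affinity activating receptor CD16, was highest in *Lyve1*-type macrophages in both libraries, at 696 CPM (654 to 740.2) at steady state and 694 CPM (666 to 722) on AngII. At steady state classical monocytes (421 CPM) and *Ear2*-type macrophages (419.7 CPM) followed and could not be ordered between themselves. On AngII interferon-type macrophages, classical monocytes, neutrophils and *Arg1*-type macrophages lay together between 547 and 576 CPM, and no neighbours among them differed beyond counting error. Neutrophils held *Fcgr3* at 95.9% (86.5 to 106) of the macrophage level, where the macrophage marker panel stood at 13.3% of its macrophage level in the same neutrophils. Type-1 dendritic cells held no *Fcgr3* UMI at steady state and 22.6 CPM on AngII, near the 26 CPM of T cells.

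*Fcgr4*, an activating receptor of intermediate affinity, was highest in nonclassical monocytes in both libraries. It stood there at 305 CPM (218 to 415) in 13 cells at steady state and 331 CPM (229 to 462) in 16 cells on AngII. At steady state the next class, classical monocytes, held 42.5 CPM, of which 7 of 9 UMIs were in 1 cell, and *Lyve1*-type macrophages held 17.2 CPM (11.1 to 25.4). On AngII the 140 interferon-type macrophages reached 315 CPM (284 to 349), not distinguishable from nonclassical monocytes, and the other macrophage types lay between 103 and 151 CPM. T cells held 1 UMI on AngII and none at steady state.

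*Fcgr2b*, the inhibitory receptor CD32b, was led by *Lyve1*-type macrophages in both libraries, with 615 CPM (575 to 656) at steady state and 973 CPM (939.9 to 1006) on AngII. At steady state the 13 type-2 dendritic cells came next with 441 CPM (370.2 to 522) and did not differ beyond counting error from classical monocytes at 345 CPM. Type-1 dendritic cells stood at 164 CPM (118 to 221) and 163 CPM (144 to 183) at steady state and on AngII. Beside the 42 and 281 UMIs of *Fcgr2b* these cells held 0 and 71 UMIs of the 3 activating receptors. B cells, in which *Fcgr2b* encodes the only classical Fc gamma receptor, held 105 CPM (71.1 to 149) at steady state and 135 CPM (103 to 173) on AngII. That was 19.2% (13 to 27.5) and 16.5% (12.6 to 21.2) of the macrophage level, whereas the macrophage panel stood at 5.03% and 5.91% in the same B cells. One cell gave 17 of the 61 *Fcgr2b* UMIs of B cells on AngII. *Fcgr3* stood in B cells at 4.83% (2.2 to 9.2) of the macrophage level at steady state and 9.59% (6.2 to 14.2) on AngII, and *Fcgr4* at 49.9% (9.86 to 157) and 20.8% (11.3 to 35). At steady state 8 of 9 *Fcgr3* UMIs of B cells lay in 1 cell. All 3 *Fcgr4* UMIs lay in a cell that also held *Fcgr1*, *Fcgr2b* and *Fcgr3*, the only B cell there with more than 1 of these genes. The panel was uneven in steady state B cells, with 71.7% of its B cell UMIs in 1 barcode.

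*Fcer1g*, the chain that carries the signal of the activating receptors and of the IgE receptor, had more UMIs than any other member in each myeloid class of at least 10 cells. Nonclassical monocytes held 2912 CPM (2627 to 3219) at steady state and 3909 CPM (3536 to 4310.3) on AngII. Mast cells held 3661 CPM (3112 to 4278) in 8 cells and 3502 CPM (2858 to 4247) in 21 cells, and on AngII they could not be told from interferon-type macrophages or classical monocytes at 3657 and 3489 CPM. The 12 NK cells on AngII held 2408 CPM (2023 to 2845) and only 3 *Fcgr3* UMIs. *Lyve1*-type macrophages were in the middle of the order, with 1656 CPM (1590.2 to 1723) at steady state and 2619.5 CPM (2566 to 2674) on AngII. T cells held 189 and 184 CPM, and 30 of the 69 UMIs in steady state T cells came from 1 cell.

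*Fcgrt*, the neonatal Fc receptor chain, was highest in 1 macrophage type. *Lyve1*-type macrophages stood at 658 CPM (617 to 701) at steady state and 549 CPM (524 to 574) on AngII, and the next class was type-1 dendritic cells in both libraries, at 133 CPM (91.8 to 185) and 194 CPM (174 to 216). Below them, neighbours in the order did not differ beyond counting error until T cells on AngII, at 20.6 CPM. Classical monocytes held 42.5 and 34.3 CPM.

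*Fcrls* was led by *Ear2*-type macrophages at steady state, with 1044 CPM (939.8 to 1156), ahead of *Lyve1*-type macrophages with 593 CPM (554 to 634) and type-2 dendritic cells with 432 CPM (361 to 511). On AngII the order was turned, with 428 CPM (406 to 449.9) in *Lyve1*-type and 286 CPM (262 to 312) in *Ear2*-type macrophages. At steady state 55 of the 133 UMIs of type-2 dendritic cells lay in 1 cell. All 41 UMIs of steady state classical monocytes lay in 1 of 12 cells, and on AngII the 212 classical monocytes held 7.54 CPM (3.76 to 13.5). Nonclassical monocytes held none in either library, which allows up to 22.9 and 29.2 CPM.

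**Figure D1:**
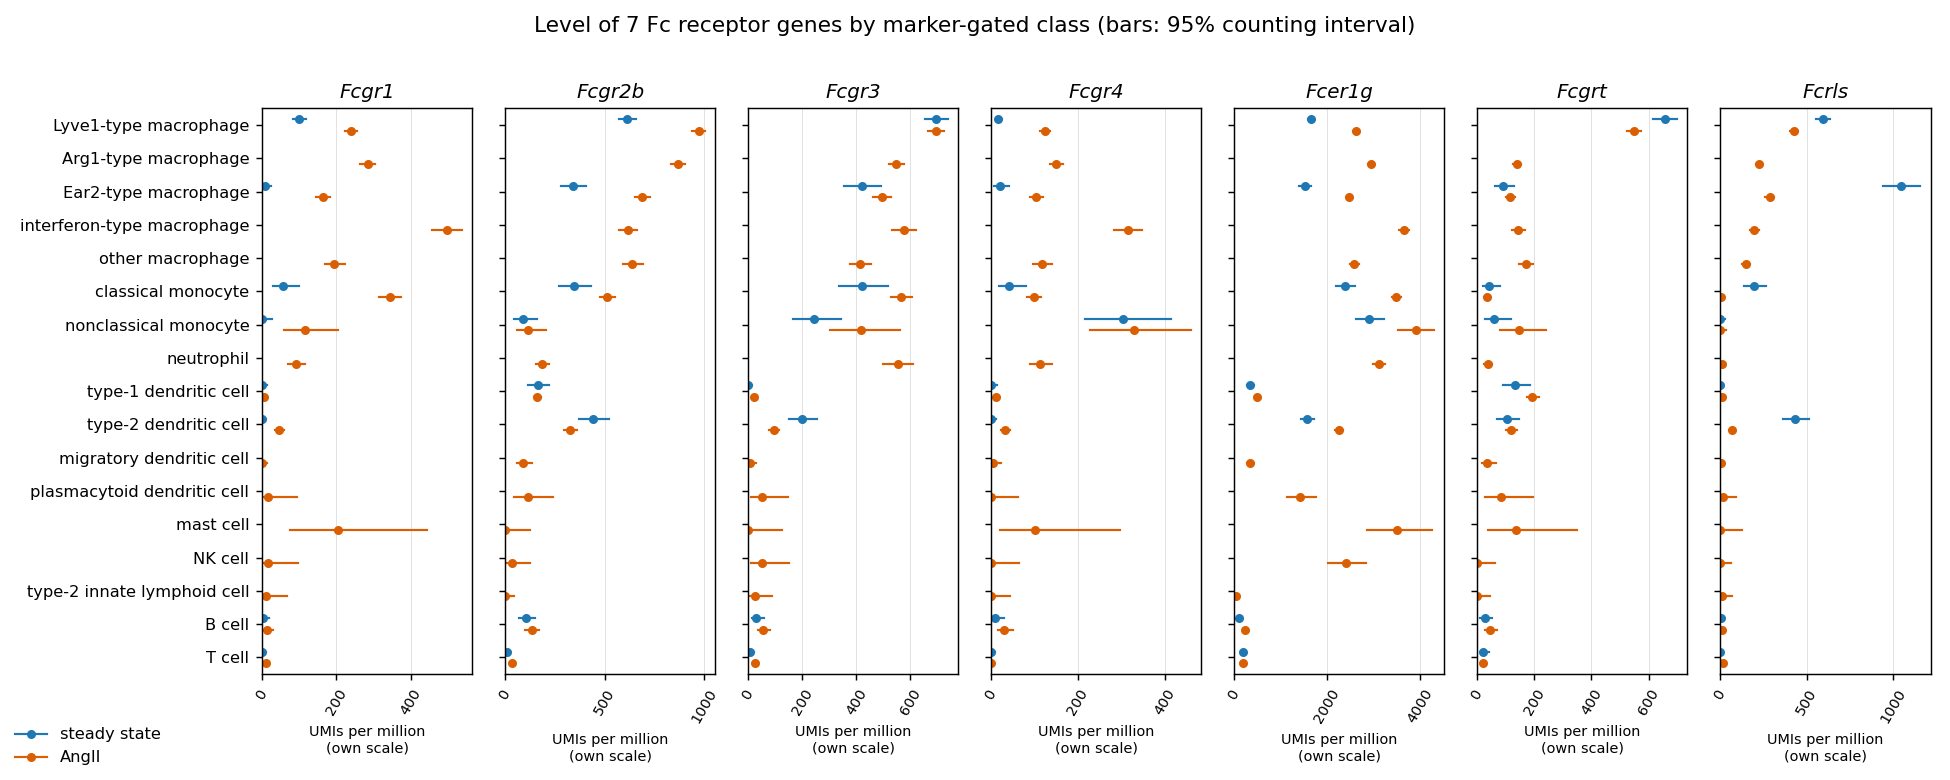
Level of each gene in CPM (horizontal axis, from 0 and on its own scale in each panel) by cell class (rows) in the steady state (blue) and AngII (orange) library, for classes with at least 10 cells. Points are summed levels, bars are 95% counting intervals, and *Fcgr4* peaks in nonclassical monocytes, at 305 and 331 CPM, and *Fcgrt* in *Lyve1*-type macrophages, at 658 and 549 CPM.

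Single *Lyve1*-type macrophages varied widely. At steady state a cell held *Fcgr2b* UMIs from 0 to 30, with a median of 6, *Fcgr3* UMIs from 0 to 28, with a median of 7 and *Fcer1g* UMIs from 0 to 97, with a median of 15. On AngII, where these cells had a median of 1699 UMIs in all against 10096, the same counts ran from 0 to 62, with a median of 2, from 0 to 46, with a median of 1 and from 0 to 178, with a median of 4. *Fcgr1* and *Fcgr4* had a median of 0 and 0 UMIs per cell at steady state and 0 and 0 on AngII. To set the shares of cells side by side, each cell was thinned to 1000 UMIs, which left 120 and 473 *Lyve1*-type macrophages and left out 1 and 198 shallower ones. *Fcgr1* was then found in 6.67% (2.92 to 12.7) of cells at steady state and 18.6% (15.2 to 22.4) on AngII, against 49.6% and 39% before thinning. In T cells, which should lack it and were of 8296 and 1218 median UMIs, thinned shares were 0% and 4.24%. *Fcgr2b* was found in 44.2% (35.1 to 53.5) and 54.1% (49.5 to 58.7) of thinned cells, *Fcgr3* in 45% and 44.4%, and *Fcer1g* in 73.3% (64.5 to 81) and 90.5% (87.5 to 93). *Fcgrt* was found in 49.2% (39.9 to 58.4) and 34.5% (30.2 to 38.9) and *Fcrls* in 38.3% (29.6 to 47.6) and 28.3% (24.3 to 32.6). *Fcgr4* was in 10.8% on AngII and in 1 of 120 cells at steady state, too few to set a level, against 27.4% and 8.26% before thinning. Before thinning, the shares of *Fcgr2b*, *Fcgr3*, *Fcer1g*, *Fcgrt* and *Fcrls* in *Lyve1*-type macrophages were 93.4%, 93.4%, 96.7%, 94.2% and 88.4% at steady state and 70%, 61%, 92.5%, 51.3% and 46.5% on AngII. The thinned T cell shares of those genes were 0%, 2.5%, 5%, 2.5% and 0% at steady state and 5.45%, 6.06%, 20.6%, 2.42% and 1.82% on AngII.

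Of the 4 IgG-binding Fc gamma receptor genes, 27.5% of thinned *Lyve1*-type macrophages showed none at steady state and 20.1% on AngII. A single receptor gene was found in 50.8% and 41%, 2 genes in 19.2% and 30.7%, and 3 genes in 2.5% and 7.4%. At a depth of 1000 UMIs a gene that was not found may still have been transcribed.

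The balance of activating to inhibitory receptor ranged widely between classes. Summed UMIs of *Fcgr1*, *Fcgr3* and *Fcgr4* over UMIs of *Fcgr2b* of the same cells gave 1.32 (1.21 to 1.44) in *Lyve1*-type macrophages at steady state and 1.09 (1.04 to 1.14) on AngII. In all macrophages the ratio was 1.35 (1.25 to 1.47) and 1.21 (1.17 to 1.24), and the steady state value was 1.24 once cells were thinned to 1000 UMIs. Interferon-type macrophages on AngII had 2.25 (2.06 to 2.46), and the intervals of the *Arg1*-type at 1.13 (1.07 to 1.2) and the *Ear2*-type at 1.1 (1.02 to 1.19) lay below it. Classical monocytes had 1.51 (1.11 to 2.05) and 1.97 (1.8 to 2.15), neutrophils on AngII 4.02 (3.33 to 4.89), and nonclassical monocytes 6 (3.23 to 12.1) and 7.42 (4.04 to 14.9), the highest of the classes with at least 10 cells and 20 receptor UMIs. Dendritic cells were at the other end, with 0.253 (0.192 to 0.329) in type-1 and 0.449 (0.326 to 0.611) and 0.527 (0.446 to 0.62) in type-2 cells. The 30 migratory dendritic cells on AngII had 0.13 (0.0251 to 0.432), with 17 of 23 *Fcgr2b* UMIs in 1 cell. Steady state type-1 dendritic cells held 42 *Fcgr2b* UMIs and no activating receptor UMI. In B cells the ratio was 0.419 (0.201 to 0.825) and 0.738 (0.49 to 1.1). At steady state it rests on 13 activating UMIs in 2 cells, 1 of which held all 4 receptor genes. A ratio of UMIs between genes also carries any difference in how well each transcript is captured.

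*Fcgr1* and *Fcgr4* took a larger share of the receptor UMIs on AngII. In *Lyve1*-type macrophages *Fcgr3* made up 48.7% of the UMIs of the 4 genes at steady state and 34.2% on AngII. *Fcgr1* made up 7.0% and 11.8%, *Fcgr4* 1.21% and 6.14%, and *Fcgr2b* 43.1% and 47.9%. In interferon-type macrophages *Fcgr1* and *Fcgr4* together passed *Fcgr3*, with 24.8% and 15.7% against 28.7%. For each UMI of an activating receptor there were 2.04 (1.9 to 2.19) UMIs of *Fcer1g* in *Lyve1*-type macrophages at steady state and 2.48 (2.38 to 2.58) on AngII. The same ratio was 13.1 (11.4 to 15) in type-2 dendritic cells on AngII and 34.5 (13.2 to 128) in NK cells, where other receptors also use the chain.

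**Figure D2:**
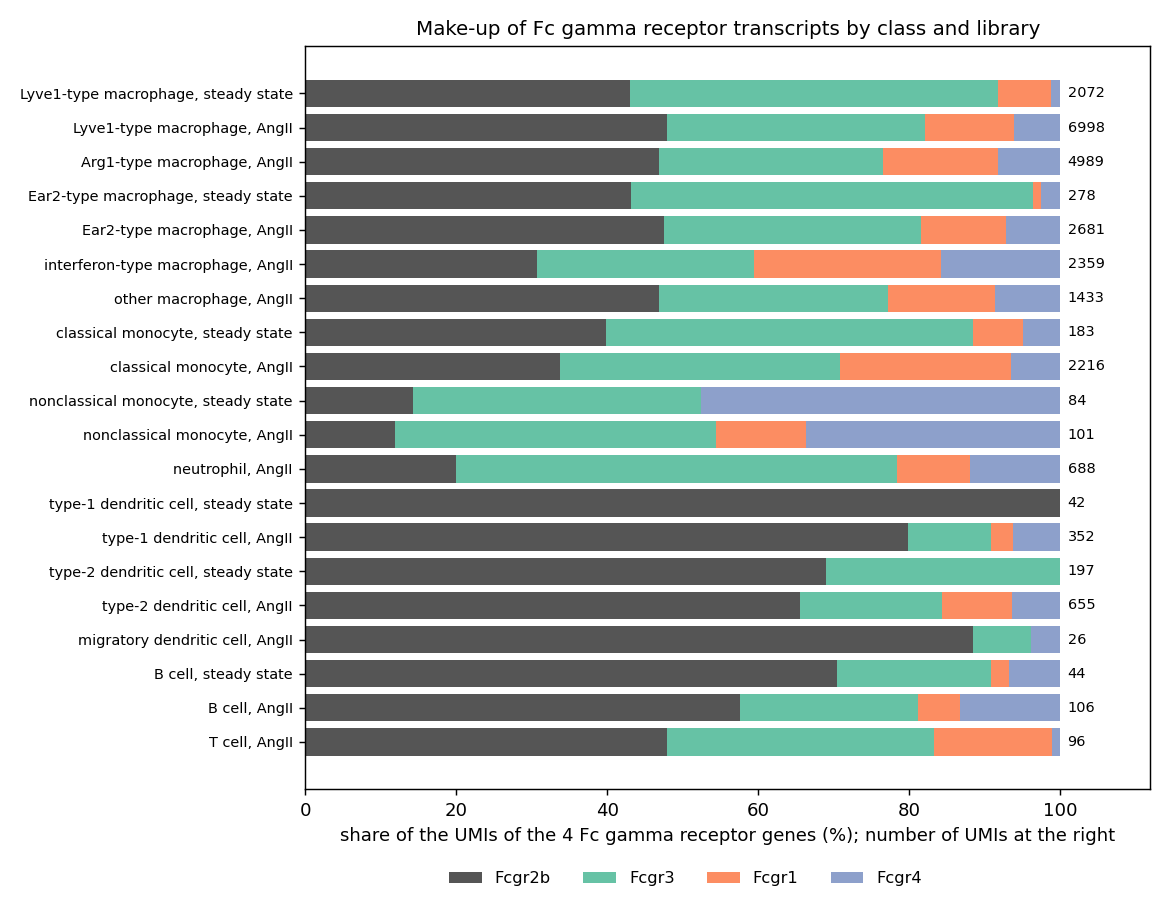
Share of each gene (percent, horizontal axis) among the summed UMIs of *Fcgr2b* (grey), *Fcgr3* (green), *Fcgr1* (orange) and *Fcgr4* (blue) for classes with at least 10 cells and 20 receptor UMIs, with the number of UMIs at the right of each bar. The grey inhibitory share runs from 11.9% in nonclassical monocytes on AngII to all of the 42 UMIs in type-1 dendritic cells at steady state.

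Macrophages of the AngII library held more *Fcgr1* and *Fcgr4* and less *Fcgrt* and *Fcrls* than those of the steady state library. In all macrophages (2699 against 142 cells) *Fcgr1* stood at 86.5 CPM (73.7 to 101) at steady state and 262 CPM (252 to 272) on AngII, a ratio of 3.03 (2.59 to 3.57). *Fcgr4* stood at 20.3 CPM (14.4 to 27.8) and 149 CPM (142 to 157), a ratio of 7.34 (5.32 to 10.4). The interval of the ratio held 1 for none of the 7 members, so counting error alone does not set these 2 genes apart. The share of all genes with such an interval was not counted. *Fcer1g* stood at 1649 and 2793 CPM, a ratio of 1.69 (1.63 to 1.76), and *Fcgr2b* at 544 and 818 CPM, a ratio of 1.5 (1.41 to 1.61). *Fcgr3* was close to level, with 629 and 577 CPM and a ratio of 0.917 (0.861 to 0.977). *Fcgrt* was lower on AngII, with 533 and 277 CPM and a ratio of 0.52 (0.483 to 0.559), as was *Fcrls*, with 659 and 293 CPM and a ratio of 0.445 (0.417 to 0.476). At least 2 times higher were 2 of the 7 members (*Fcgr1* and *Fcgr4*), and 1 was at least 2 times lower (*Fcrls*), beside 8.5% higher and 9.36% lower (17.9% either way) among 11894 genes with at least 20 UMIs. The median ratio was 1.5 over the 7 members and 0.98 over all these genes. After thinning to 1000 UMIs *Fcrls* stood at 0.572 times and *Fcgrt* at 0.435 times the steady state level, so that they changed places around the 2-times line.

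The mix of macrophage types differed as well, since 121 of 142 macrophages were of the *Lyve1* type at steady state and 671 of 2699 on AngII. Within *Lyve1*-type macrophages the ratios of *Fcgr1* and *Fcgr4* were 2.39 (2.0 to 2.87) and 7.24 (4.84 to 11.3), those of *Fcgr2b* and *Fcer1g* 1.58 (1.47 to 1.71) and 1.58 (1.51 to 1.66), and that of *Fcgr3* 0.997 (0.926 to 1.07). *Fcgrt* and *Fcrls* came nearer to level, with 0.834 (0.771 to 0.902) and 0.721 (0.662 to 0.785). Here 2 members were at least 2 times higher and 0 at least 2 times lower, beside 7.25% higher and 7.3% lower (14.6% either way) among 10205 genes. The median was 1.58 over the members and 1.01 over all genes tested. In the 14 and 379 *Ear2*-type macrophages, too few at steady state for a ratio, *Fcgr1* stood at 8.51 and 163 CPM, *Fcgr4* at 19.9 and 103 CPM, and *Fcrls* at 1044 and 286 CPM. Each AngII macrophage type held more *Fcgr1* and *Fcgr4* than the *Lyve1*-type and *Ear2*-type macrophages at steady state. The 3 interferon-type macrophages at steady state, few as they were, held 14 *Fcgr1* UMIs (334 CPM) and 6 *Fcgr4* UMIs (143 CPM).

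Macrophage transcripts found in T cells also differed between the libraries, and whether they were free RNA was not tested. On AngII T cells held *Fcgr1* at 4.37% (2.44 to 7.23) and *Fcgr4* at 0.513% (0.013 to 2.87) of the macrophage level, and *Fcgr1* and *Fcgr4* stood 2.57 to 3.68 and 6.01 to 9.94 times as high in all AngII macrophages over 11 other ways of processing, 1 of which subtracts the T cell level. In *Lyve1*-type macrophages the ranges were 2.27 to 3.84 for *Fcgr1* and 5.72 to 11.1 for *Fcgr4*, which had no steady state UMI in 1 of them and so 10 values. The cell with the most *Fcgr4* UMIs gave 26.3% of the 38 macrophage UMIs at steady state.

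**Figure D3:**
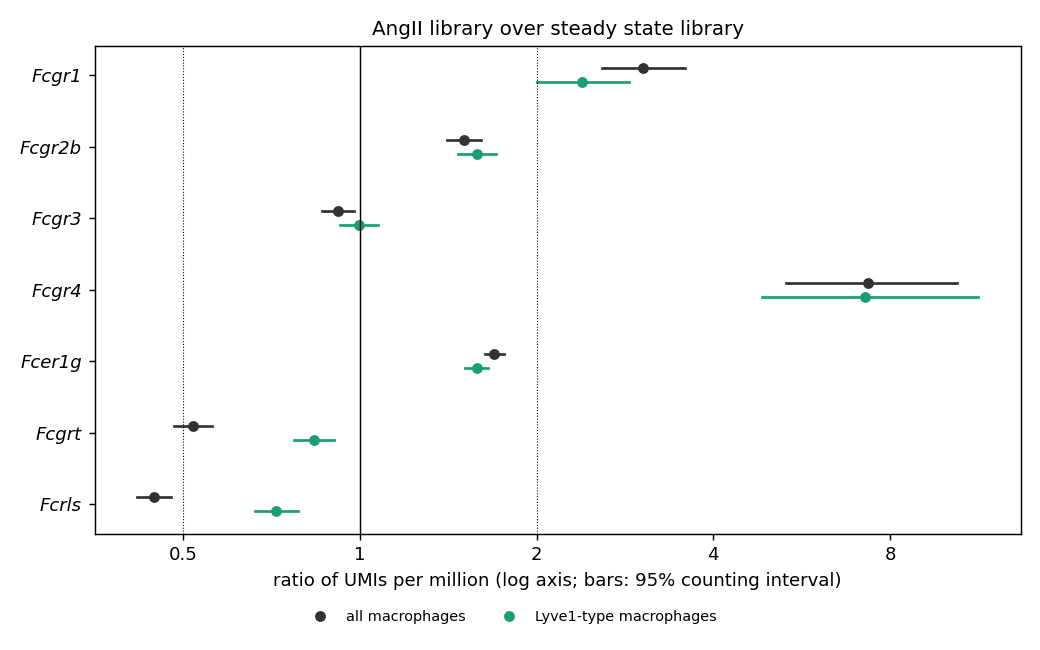
Ratio of CPM, AngII over steady state (log axis), for each gene in all macrophages (dark) and *Lyve1*-type macrophages (green), with 95% counting intervals, a solid line at 1 and dotted lines at 2 times either way. *Fcgr1* and *Fcgr4* lie beyond 2 in both groups, *Fcgr3* lies near 1, and *Fcgrt* and *Fcrls* lie below 1, at 0.52 and 0.445 in all macrophages.

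Monocytes were too few at steady state for ratios, and their values are set side by side. Classical monocytes (12 and 212 cells) held *Fcgr1* at 56.7 and 343 CPM, *Fcgr4* at 42.5 and 98.7 CPM and *Fcer1g* at 2392 and 3489 CPM. Nonclassical monocytes (13 and 16 cells) held *Fcgr4* at 305 and 331 CPM and *Fcgr3* at 244 and 418 CPM. In B cells (106 against 50) *Fcgr2b* had a ratio of 1.29 (0.823 to 2.05), whose interval holds 1. Of the 4 members with at least 20 UMIs there, 1 was at least 2 times higher, beside 6.75% higher and 5.6% lower (12.3% either way) among 4876 genes. It was *Fcer1g* at 2.02 (1.36 to 3.07), for which 1 cell gave 30 of 34 UMIs at steady state and 1 cell gave 26 of 105 on AngII. In T cells (280 against 40) 3 of 5 members were at least 2 times higher, beside 20.6% higher and 6.3% lower (26.9% either way) among 7808 genes. They were *Fcgr2b* at 4.28 (1.37 to 21.5), *Fcgr3* at 3.16 (0.994 to 16.1) and *Fcrls* at 7.25 (1.19 to 297), with 20 of 26 AngII UMIs in 1 cell. The summed macrophage panel also went from 76.8 to 796 CPM in T cells, and its part in these values was not tested.

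*Lyve1*-type macrophages stood out from the other macrophages of their own library by *Fcgrt*. At steady state the *Lyve1*-type held 658 CPM and the other 21 macrophages 104 CPM, a ratio of 6.31 (4.66 to 8.74). On AngII the levels were 549 CPM and 139 CPM in 671 and 2028 cells, a ratio of 3.95 (3.65 to 4.28). Over the other ways of processing it ran from 3.66 to 8.72 at steady state and from 2.63 to 4.46 on AngII. *Fcgr3* was 1.75 (1.48 to 2.07) and 1.34 (1.27 to 1.41) times as high in the *Lyve1*-type, and *Fcgr2b* 2.04 (1.69 to 2.48) and 1.31 (1.26 to 1.37) times. After thinning, *Fcgr3* at steady state turned to 0.856. *Fcer1g* was near level at 1.02 (0.936 to 1.11) and 0.909 (0.887 to 0.932). *Fcgr4* had 0.559 (0.275 to 1.19), an interval that holds 1, with 25 and 13 UMIs at steady state, and was lower in the *Lyve1*-type on AngII at 0.774 (0.69 to 0.866), but not with classes from Leiden clusters (1.09).

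*Fcgr1* and *Fcrls* had opposite directions in the libraries. *Fcgr1* stood at 99.9 CPM in the *Lyve1*-type and 40.3 CPM in the rest at steady state, a ratio of 2.48 (1.5 to 4.37), and at 239 and 274 CPM on AngII, a ratio of 0.871 (0.801 to 0.946). Of the 17 steady state UMIs outside the *Lyve1* type, 14 were in the 3 interferon-type cells. *Fcrls* stood at 593 CPM in the *Lyve1*-type and 885 CPM in the rest at steady state, a ratio of 0.671 (0.593 to 0.759), and at 428 and 225 CPM on AngII, a ratio of 1.9 (1.77 to 2.04). The other macrophages were of unlike make-up, with 14 *Ear2*-type cells of 21 at steady state and 379 of 2028 on AngII. At steady state those 14 cells held 368 of the 373 *Fcrls* UMIs outside the *Lyve1* type. With classes from Leiden clusters the AngII ratio of *Fcgr1* turned to 1.33. Whether the libraries differ in these ratios was not tested. At steady state 3 members were at least 2 times higher in the *Lyve1*-type (*Fcgr1*, *Fcgr2b* and *Fcgrt*), beside 15.5% higher and 5.55% lower (21% either way) among 8020 genes. On AngII 1 was (*Fcgrt*), beside 3.68% higher and 3.74% lower (7.41% either way) among 11455 genes. With classes drawn after thinning, *Fcgr1* and *Fcgr2b* were both 0.808 times as high in the *Lyve1*-type at steady state, so these 2 calls do not hold there.

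**Figure D4:**
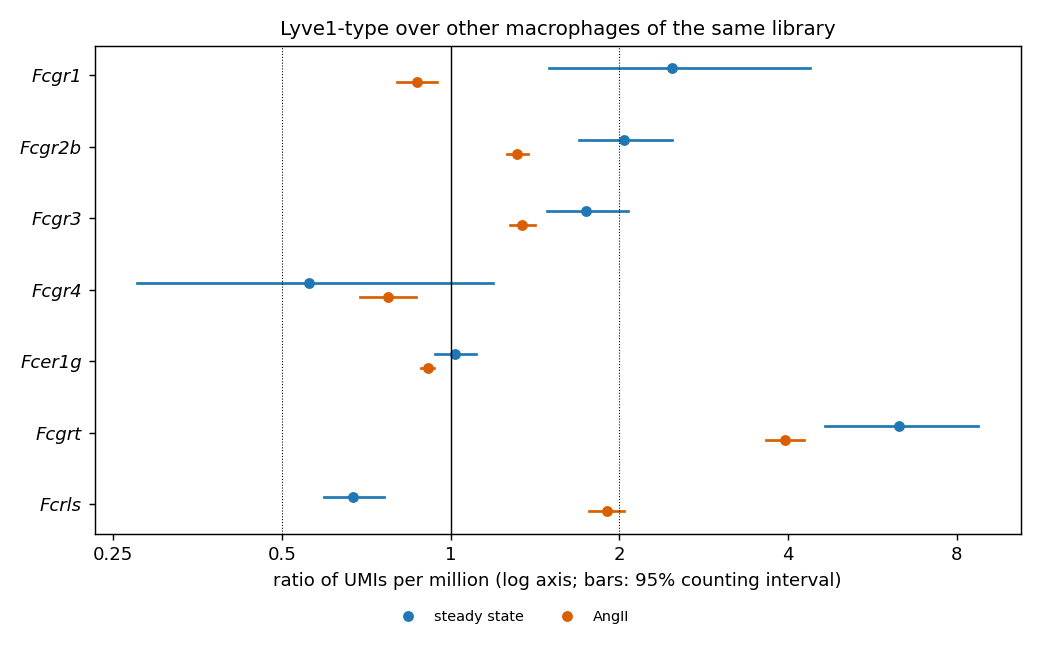
Ratio of CPM, *Lyve1*-type over all other macrophages of the same library (log axis), at steady state (blue) and on AngII (orange), with 95% counting intervals, a solid line at 1 and dotted lines at 2 times either way. *Fcgrt* lies beyond 2 in both libraries, at 6.31 and 3.95, while *Fcgr1* and *Fcrls* lie on opposite sides of 1. The other macrophages differ in make-up between the libraries.

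The study compared macrophages with and without the lineage label, and here a macrophage with at least 1 *Yfp* UMI was called *Yfp*+. A label is found more easily in a deep cell, and *Yfp*+ macrophages had medians of 11572 UMIs at steady state and 5265 on AngII, against 6326 and 976 in *Yfp*− macrophages. Levels in CPM are set against all UMIs of each group. On AngII (362 *Yfp*+ and 2337 *Yfp*− cells) *Fcgrt* and *Fcrls* were higher in *Yfp*+ macrophages. *Fcgrt* stood at 397 against 209.5 CPM, a ratio of 1.89 (1.76 to 2.04), and *Fcrls* at 398 against 234 CPM, a ratio of 1.7 (1.58 to 1.83). *Fcgr3* had 1.25 (1.19 to 1.32), *Fcgr1* 1.02 (0.943 to 1.11), *Fcgr2b* 1.02 (0.974 to 1.07), *Fcer1g* 0.941 (0.918 to 0.964) and *Fcgr4* 0.835 (0.748 to 0.931). None of the 7 reached 2 times, beside 2.29% higher and 2.54% lower (4.83% either way) among 11455 genes. Within *Lyve1*-type macrophages on AngII (186 and 485 cells) *Fcgrt* came down to 1.22 (1.11 to 1.34), and to 0.917 after thinning, and *Fcrls* to 1.33 (1.2 to 1.49), and none reached 2 times, beside 2.23% higher and 1.43% lower (3.66% either way) among 9323 genes.

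At steady state (107 *Yfp*+ and 35 *Yfp*− cells) the interval of the ratio held 1 for 5 members, with 1.3 (0.812 to 2.2) for *Fcgr1*, 1.01 (0.849 to 1.2) for *Fcgr2b*, 1.13 (0.961 to 1.35) for *Fcgr3*, 1.05 (0.878 to 1.25) for *Fcgrt* and 0.889 (0.766 to 1.04) for *Fcrls*. *Fcer1g* was 1.12 (1.01 to 1.24) times as high. *Fcgr4* had 37 UMIs in *Yfp*+ and 1 in *Yfp*− macrophages, a ratio of 6.79 (1.15 to 275). It was the only member at least 2 times higher, beside 8.14% higher and 3.52% lower (11.7% either way) among 8020 genes. With 2 *Yfp* UMIs asked for, its ratio was 0.949. Within *Lyve1*-type macrophages (94 and 27 cells) *Fcgr4* was again the 1 member at least 2 times higher, at 3.02 (0.493 to 124), an interval that holds 1, beside 11.2% higher and 4.73% lower (15.9% either way) among 7314 genes. With 2 *Yfp* UMIs it was 0.457. *Fcgrt* there was lower in *Yfp*+ cells, with 628 against 893 CPM and a ratio of 0.704 (0.589 to 0.846). With classes from Leiden clusters it was 1.91. Those clusters placed every steady state macrophage in the *Lyve1* type, so 1.91 is also their value for all macrophages.

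**Figure D5:**
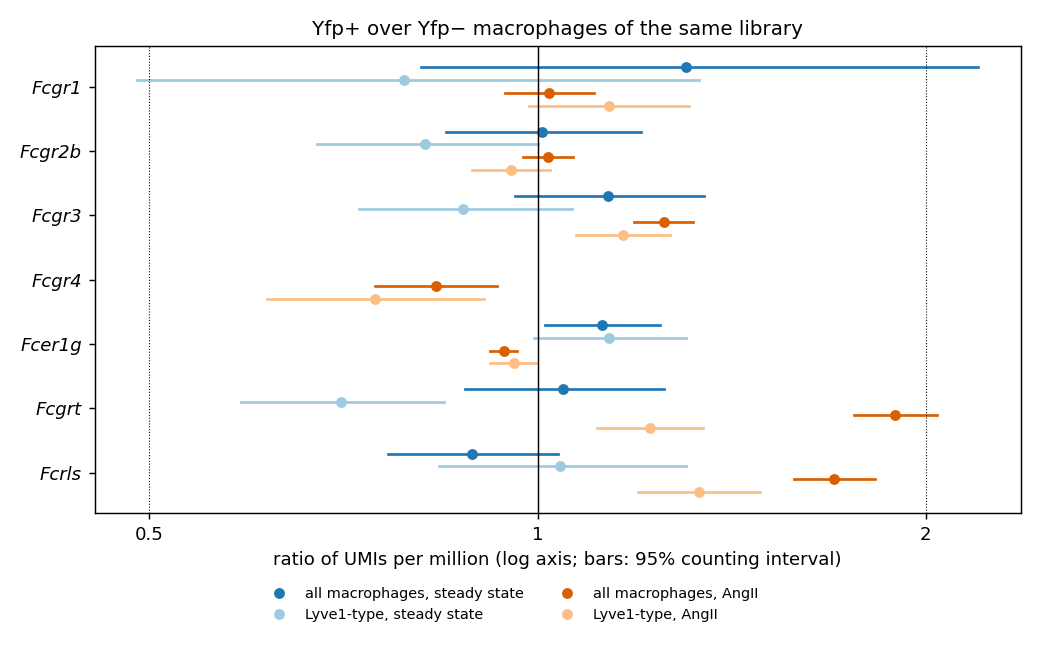
Ratio of CPM, *Yfp*+ over *Yfp*− macrophages of the same library (log axis), at steady state (blue, light for the *Lyve1*-type) and on AngII (orange, light for the *Lyve1*-type), with 95% counting intervals, a solid line at 1 and dotted lines at 2 times either way. *Fcgr4* at steady state is left out because it rests on 1 UMI in *Yfp*− cells, and the AngII ratios of *Fcgrt* and *Fcrls* are nearer to 1 in the *Lyve1*-type, at 1.22 and 1.33, than in all macrophages.

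Around the receptors, 44 genes of the pathway were listed, and 36 had enough UMIs in all macrophages. Of these 5 were at least 2 times higher on AngII and 0 at least 2 times lower, with a median ratio of 1.42. Over all genes tested 8.5% were at least 2 times higher, 9.36% at least 2 times lower, and the median was 0.98. Other receptors that signal through *Fcer1g* held 3 of the 5. They were the lectin receptors *Clec4d*, *Clec4n* (Dectin-2) and *Clec4e* (Mincle), at 17.5 (10.4 to 32.1), 7.56 (6.03 to 9.61) and 2.7 (2.18 to 3.36), while *Pira2* stood at 1.16 (0.64 to 2.26) and *Oscar* had no UMI. Of 12 kinases and adaptors, 2 passed 2 times, among them the kinase *Fgr* at 3.92 (2.98 to 5.25), and *Syk*, the kinase recruited by the *Fcer1g* chain, stood at 0.828 (0.736 to 0.933). None of the 4 phosphatases of the inhibitory signal passed it, with *Inpp5d* (SHIP1), which *Fcgr2b* recruits, at 1.29 (1.13 to 1.49) and *Ptpn6* (SHP-1) at 1.68 (1.48 to 1.91). None of 9 phagocytic effectors passed it. The partner chains *Tyrobp* and *B2m* stood at 1.58 (1.52 to 1.64) and 1.49 (1.43 to 1.54). In all macrophages *B2m* was thus higher on AngII and *Fcgrt* lower. *B2m* was also high in classes with little *Fcgrt*, as in steady state T cells, at 2352 against 21.9 CPM. Its level therefore does not measure the neonatal Fc receptor alone. Within *Lyve1*-type macrophages *B2m* was at 1.55 (1.48 to 1.62) and *Fcgrt* nearer to level at 0.834 (0.771 to 0.902). Outside the *Lyve1* type *Fcgrt* stood at 104 CPM at steady state and 139 CPM on AngII. Within *Lyve1*-type macrophages 34 of the 44 had enough UMIs. Of these 3 were at least 2 times higher (*Clec4n*, *Clec4d* and *Fgr*) and 0 at least 2 times lower, with a median ratio of 1.33. Over all genes 7.25% were higher, 7.3% lower, and the median was 1.01.

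Most other immunoglobulin receptors were found in mast cells and B cells. *Fcer1a*, which binds IgE, stood at 1854 CPM in 8 mast cells at steady state and 3162 CPM in 21 on AngII, where 28.6% of the cells held a UMI, and *Ms4a2*, its beta chain, at 1043 CPM at steady state. *Fcer2a* (CD23) stood in B cells at 398 and 307 CPM, and *Fcmr*, the IgM receptor, at 655 and 459.9 CPM. *Fcrl1* was at 74.3 and 88.4 CPM in B cells, and *Fcrla* at 249.9 and 219 CPM in B cells and 109 and 92.6 CPM in type-1 dendritic cells, with 488 CPM in the 11 plasmacytoid dendritic cells on AngII. *Trim21*, the antibody receptor of the cytosol, was at 12.3 and 13.1 CPM in all macrophages and 23.8 CPM in interferon-type macrophages.

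Across the 16 groups of class and library with at least 20 cells, the genes with the most similar levels were found among 2958 genes with at least 200 UMIs in each library, by Pearson's r of log2(CPM + 10). The groups come from 2 libraries of unlike depth and many are macrophages, so these values describe a shared pattern and nothing more. *Fcgr1* and *Fcgr4* did not reach 200 UMIs in each library, so they were not among the 2958 genes that could be named. *Fcgr1* was most like *Ifi204*, *Pla2g7* and *Cndp2* (r = 0.958, 0.957 and 0.957), of which *Ifi204* is an interferon-induced gene. *Fcgr2b* was most like *Cebpa*, *Dram2* and *Ctsc* (0.939, 0.934 and 0.932), and *Fcgr3* like *Lair1*, *Lrp1* and *Hacd4* (0.980, 0.980 and 0.978). *Fcgr4* was most like *Derl1*, *Pilra* and *Atp6ap1* (0.919, 0.893 and 0.880), and *Fcer1g* like *Fes*, *Emilin2* and *Tyrobp* (0.954, 0.949 and 0.947), of which *Tyrobp* is another signalling chain of the same kind. *Fcgrt* was most like *Gpr34*, *Frmd4b* and *Rnf150* (0.929, 0.920 and 0.896). *Fcrls* was most like the reporter *Yfp* itself (r = 0.966), followed by *Mrc1* (0.933), which is a marker of the macrophage panel, and *Abca9* (0.911). Among the members, the closest pairs were *Fcgr1* with *Fcgr4* (r = 0.921), *Fcgr1* with *Fcer1g* (0.918) and *Fcgr2b* with *Fcgr3* (0.893), and the least alike were *Fcgr4* with *Fcgrt* (0.419).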

How the data were processed

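CD45-positive cells were enriched with beads, sorted as live cells and captured with the 10x Genomics 3′ kit. According to the methods, the authors split the reads by sample with Je and ran CellRanger 3.1.0 on GRCm38.p6, the GENCODE M24 annotation and the eYFP sequence. The deposited values are raw UMI counts for each feature and barcode. CellRanger counts a read only where it fits 1 gene, so reads shared by near-identical receptors are lost. The submitters' processing notes also name bcl2fastq.

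By the thresholds of the methods, a barcode needed 300 to 6500 genes and no more than 5% mitochondrial UMIs, and doublets were left in. On AngII 211 barcodes joined no class, 407 were tied and 378 held just 2 markers (0, 13 and 1 at steady state), ties going to the class with more marker UMIs. A class needed at least 20 cells in both groups for a ratio. Intervals are exact (Poisson for CPM, Clopper-Pearson for shares, conditional binomial for ratios), at 95%, and cover counting error only. No p-value was computed because each condition has 1 library. The genes of the set, marker panels and lists were chosen with earlier results of these data known. Named genes are the 7 members, for each the 3 genes of most similar level, pathway genes at least 2 times apart in all macrophages, and the other immunoglobulin receptors with at least 20 UMIs in a class. *Syk*, *Inpp5d*, *Ptpn6*, *Pira2*, *Oscar*, *Tyrobp* and *B2m* were named for their role, after their values were seen. Besides 11 other ways of processing, 1 was added after the data were seen. Of the genes and motifs that these rules name, 2 are not reported here. Ratios and gates were run on simulated data. For the gates, each cell was drawn at its own depth from the summed profile of its own class. No doublets or free RNA were added, so this does not show how well the gates work on real cells. Coordinates are from GENCODE M21 and promoters from RefSeq. The tools were SciPy 1.17.1 for intervals, Scanpy 1.11.5 for Leiden clusters, pandas 2.3.3, NumPy 2.4.6 and Matplotlib 3.10.9, run in Python 3.11.15.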

Additional observations from a re-analysis of the deposited data

Results flagged for a closer look

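Several ratios lay on opposite sides of 1 in the libraries, with intervals that did not hold 1 in either, and in no case was the difference between the libraries tested. *Lyve1*-type over other macrophages, *Fcgr1* was 2.48 at steady state and 0.871 on AngII, and *Fcrls* was 0.671 and 1.9. The make-up of the other macrophages differed between the libraries. *Yfp*+ over *Yfp*− macrophages, *Fcgr4* was 6.79 at steady state, resting on 1 UMI in *Yfp*− cells, and 0.835 on AngII. *Fcer1g* was 1.12 and 0.941 in the same comparison, and turned to 0.814 with gates drawn after thinning at steady state and to 1.05 as a mean over cells on AngII. Within *Lyve1*-type macrophages *Fcgrt* was 0.704 times as high in *Yfp*+ cells at steady state and 1.22 times on AngII, but 0.917 after thinning on AngII. With classes from Leiden clusters the steady state value was 1.91, over a *Lyve1* type that there took in all macrophages. The *Fcgr1* ratio of *Lyve1*-type over other macrophages also changed direction, to 0.808 with gates drawn after thinning at steady state and 1.33 with Leiden clusters on AngII, and the *Fcgr4* ratio of *Yfp*+ over *Yfp*− macrophages at steady state fell to 0 after thinning. *Fcrls* kept its direction in all 10 and 11 other ways of processing.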

How the results depend on the processing

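Over the other ways of processing, 7 of 632 values of a member's ratio moved a ratio called at 2 times to the other side of 1. Another 146 left the counting interval of the ratio. In all macrophages the direction between AngII and steady state held for all 7 members in all 11 of them. In *Lyve1*-type macrophages it held for 6 of 7, and *Fcgr3*, near 1, kept it in 6 of 11. *Fcrls* lost its 2-times call in all macrophages after thinning (0.572) and with gates drawn after thinning (0.586). The cause of the shifts below was not tested. For *Yfp*+ over *Yfp*− macrophages at steady state, the number of members at least 2 times apart, 1 in all macrophages and 1 in the *Lyve1*-type, was 2 and 2 after thinning, 2 and 2 with classes from Leiden clusters, 0 and 0 with the richest cell for that gene left out, and 2 and 0 with gates drawn after thinning. With 2 *Yfp* UMIs it was 0 in all macrophages. There *Fcgr4* was 0 in both after thinning and 0 in all macrophages with gates drawn after thinning, and 0.949 and 0.457 with 2 *Yfp* UMIs. With gates drawn after thinning, *Fcgr1* and *Fcgr2b* were 0.808 and 0.808 in *Lyve1*-type over other macrophages at steady state. Activating over inhibitory UMIs in all macrophages were 1.24 after thinning, 1.24 with Leiden clusters and 1.17 with gates drawn after thinning at steady state. On AngII they were 1.17 as a mean over cells. Directions below the 2-times line turned too, and only some of these turns are given here. For *Yfp*+ over *Yfp*− in all macrophages at steady state, *Fcgr2b* kept its direction in 6 of 12 values and *Fcgrt* in 8 of 12. For *Lyve1*-type over other macrophages at steady state, *Fcer1g* kept it in 3 of 10. *Lyve1*-type over other macrophages, *Fcgr3* at steady state was 0.856 after thinning, and on AngII *Fcgr1*, *Fcgr4* and *Fcer1g* were 1.33, 1.09 and 1.13 with Leiden clusters. Leiden clusters held no macrophage outside the *Lyve1* type at steady state, so *Lyve1*-type over other macrophages has no value there. The steady state values of all macrophages and of the *Lyve1*-type are then the same. A ratio against a group without a UMI was left out. No paired analysis was possible because each condition has 1 library. Depth limits the AngII cells, of which 1910 of 4198 held under 1000 UMIs.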
